A study of Mus musculus with 12 samples.

Results

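The genes described here are 8 markers of the oligodendrocyte progenitor cell (OPC), chosen by name: Pdgfra, Cspg4, Ptprz1, Lhfpl3, C1ql1, Susd5, Sox5 and Sox6. Each had 1 row in the table of gene expression from mouse cortex, which holds 23354 gene symbols, and all 8 were among the 14075 symbols tested, whose mean level reached 0.5 FPKM (fragments per kilobase of transcript, relative to all mapped fragments in that library). RNA-seq libraries came from the cortices of 12 C57BL/6 mice at postnatal day 16, in 4 groups of 3. The Dnmt1 CKO (conditional knockout) mice had the genotype Olig1cre/+;Dnmt1flox/flox and their littermate controls Olig1+/+;Dnmt1flox/flox, while the Dnmt3a CKO mice were Olig1cre/+;Dnmt3aflox/flox and their littermate controls Olig1+/+;Dnmt3aflox/flox. All groups carried floxed alleles on both chromosomes, and the CKO groups alone carried cre, inserted at the Olig1 locus, which is active in the oligodendrocyte lineage. The design asks how loss of a DNA methyltransferase in that lineage changes cortical expression, and whether the outcome differs between the maintenance enzyme Dnmt1 and the de novo enzyme Dnmt3a.

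OPCs are dividing glial cells that persist throughout the cortex and give rise to the oligodendrocytes that wrap axons in myelin. They are recognised by the receptor for platelet-derived growth factor (PDGF), which drives their proliferation, and by the proteoglycan NG2, and they lose these markers as they commit to differentiation. Around the third postnatal week the rodent cortex holds progenitors, committed cells and newly myelinating oligodendrocytes side by side. In whole cortex, fewer cells of a type cannot be told apart from less RNA of a gene per cell. Several of these markers are also expressed outside the lineage: Pdgfra in fibroblasts, Cspg4 in pericytes, Ptprz1 in astrocytes, Sox6 in interneurons and Sox5 in deep-layer neurons.

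The targeted genes were examined first. Dnmt1 was at 9.78 to 10.6 FPKM in Dnmt1 control and 7.26 to 9.11 FPKM in Dnmt1 CKO cortices, without overlap (log2 fold change −0.27, adjusted p = 0.29 from limma). Dnmt3a was at 13.6, 14.2 and 15.4 FPKM in the Dnmt3a CKO libraries, at 31.1 and 28.7 FPKM in control replicates 1 and 3, and at 16.9 FPKM in the library labelled Dnmt3a control replicate 2, which lies nearer to the CKO libraries. Results of the Dnmt3a line are therefore also given without that library. With it kept, Dnmt3a had a log2 fold change of −0.78 in its own line (adjusted p = 0.66 from limma). It was not called there, although every CKO value lay below every control value. A lack of calls in the Dnmt3a line therefore does not show that a gene was unchanged. The relative depth of the libraries, read from the steps between low values, ran from 0.856 to 1, but how many reads stand behind each level is unknown. For 1 gene, exact permutation of 3 mice against 3 cannot give a p below 0.1, so calls rest on limma's moderated test across all genes with Benjamini-Hochberg adjustment at 10% FDR.

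In the Dnmt1 line, 2 of the 8 markers passed the threshold, both lower in the CKO cortices: Pdgfra, which encodes the PDGF receptor alpha chain, and Sox6, a SoxD transcription factor of progenitors. Of all genes tested, 3.15% passed in either direction and 2.3% were lower. The same 2 markers had an unadjusted p under 0.05, as did 15% of all genes. Pdgfra fell by 18.7% and Sox6 fell by 19.4% on the scale of log2(FPKM + 0.1). Cspg4, the gene for NG2, had means of 2.995 FPKM in CKO and 3.0 FPKM in control mice and did not pass. In the Dnmt3a line 0 of the 8 passed limma's threshold, against 0.0142% of all genes and 0% for lower genes, and 0 had an unadjusted p under 0.05, against 7.36% of all genes.

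**Figure D1:**
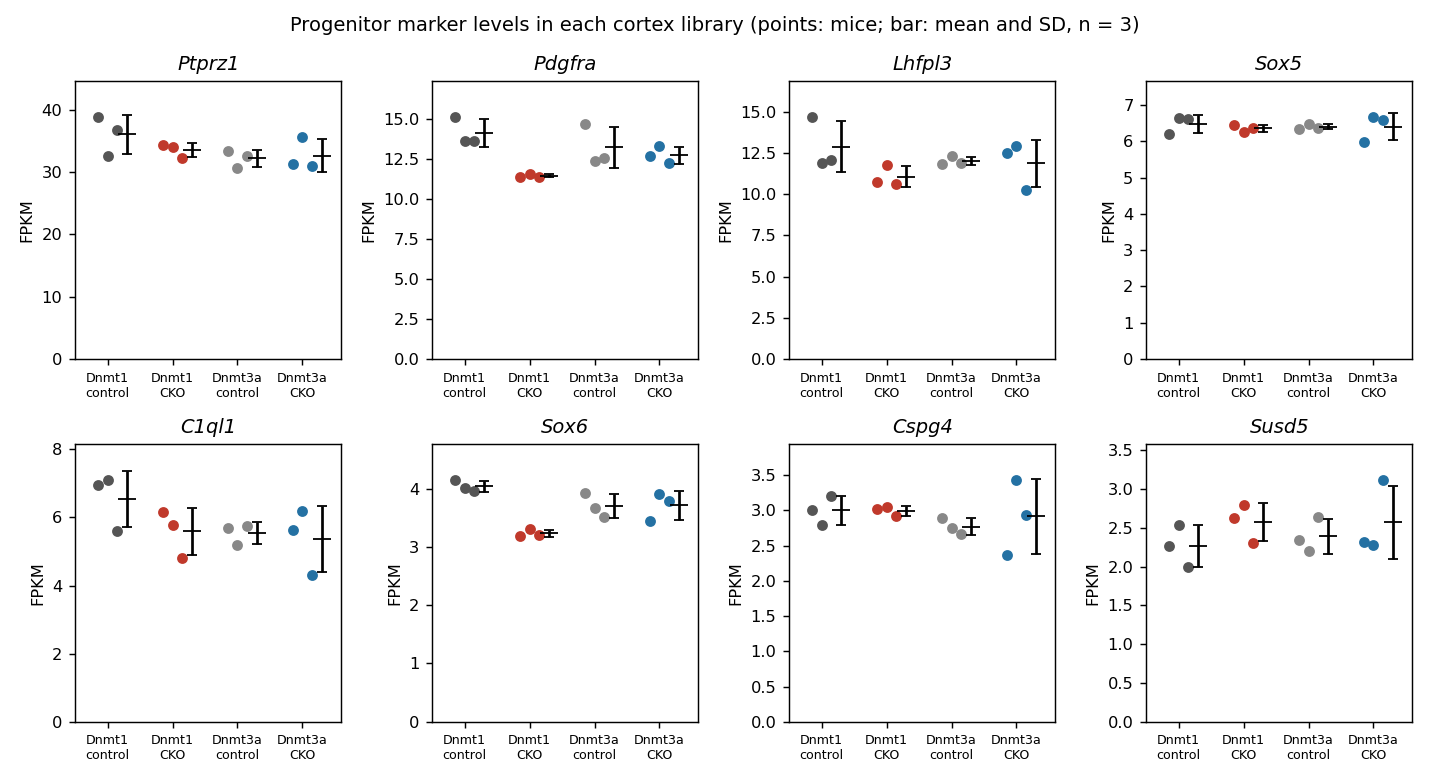
Levels of the 8 progenitor markers in FPKM (linear axes from 0), 1 point per mouse, with the mean and SD of each group of 3 as a black bar beside the points. For Pdgfra, Sox6 and Lhfpl3 the 3 Dnmt1 CKO points lie below all 3 Dnmt1 control points, and no marker separates the groups of the Dnmt3a line.

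The markers differed in level by over an order of magnitude. Ptprz1 was highest, with 30.7 to 38.8 FPKM over the 12 libraries (median 32.9). Pdgfra (11.4 to 15.1 FPKM, median 12.6) and Lhfpl3 (10.3 to 14.7 FPKM, median 11.9) came next, and their ranges overlapped. Sox5 (5.98 to 6.66 FPKM) and C1ql1 (4.31 to 7.10 FPKM) overlapped as well, and below them stood Sox6 (3.19 to 4.15 FPKM), Cspg4 (2.37 to 3.43 FPKM) and Susd5 (1.99 to 3.12 FPKM), whose ranges overlapped from one to the next. Since FPKM is scaled to transcript length, these levels can be set beside each other. By mean level Ptprz1 stood at the 86.7th percentile of the genes tested and Susd5 at the 22.3rd.

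Pdgfra occupies 75152292 to 75198215 of chromosome 5 (GRCm38, the mm10 build, plus strand), and its longest annotated transcript has 23 exons. It was at 15.1, 13.6 and 13.6 FPKM in the Dnmt1 controls, while the Dnmt1 CKO mice had 11.4, 11.6 and 11.4 FPKM. All CKO values were below all control values, and the CKO values were the closer together, with an SD of 0.0984 against 0.848 FPKM. The log2 fold change was −0.30 (standard error 0.048, 95% interval −0.42 to −0.18, adjusted p = 0.046 from limma, and 0.02 to 0.19 when other settings were tried). The value lay between −0.32 and −0.25 with any library of the line left out, but the call was lost without Dnmt1 control replicate 2 (adjusted p = 0.13) and without Dnmt1 CKO replicate 1, 2 or 3 (adjusted p = 0.18, 0.14 and 0.18 from limma). The Dnmt3a controls had 14.7, 12.4 and 12.6 FPKM and the Dnmt3a CKO mice 12.7, 13.3 and 12.2 FPKM, which overlap. There the log2 fold change was −0.05 (95% interval −0.24 to 0.14, adjusted p = 0.89 from limma), and −0.095 without Dnmt3a control replicate 2. The difference between the lines was −0.25 (95% interval −0.46 to −0.04) and did not pass the threshold (interaction test of limma, unadjusted p = 0.022, adjusted p = 0.35). Without Dnmt3a control replicate 2 it was −0.20 (limma's adjusted p = 0.53). Among the alternatives run it passed only without Dnmt3a control replicate 1, the highest of that group, at −0.33 (limma's adjusted p = 0.077).

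Sox6, at 115470872 to 116038796 of chromosome 7 (minus strand, 16 exons in the longest transcript), encodes a factor that with its relative Sox5 opposes the differentiation of progenitors. It was at 4.15, 4.01 and 3.96 FPKM in the Dnmt1 controls, while the Dnmt1 CKO mice had 3.19, 3.31 and 3.21 FPKM. These groups were separate, with a gap larger than either group's own range. The log2 fold change was −0.31 (standard error 0.052, 95% interval −0.44 to −0.18, adjusted p = 0.053 from limma, and 0.015 to 0.25 when other settings were tried). It lay between −0.33 and −0.29 with any library left out, and the call was lost in each of these 6 fits, with adjusted p from 0.12 without Dnmt1 control replicate 3 to 0.22 without Dnmt1 CKO replicate 1 (limma). In the Dnmt3a line Sox6 was at 3.92, 3.67 and 3.51 FPKM in control cortices against 3.44, 3.91 and 3.78 FPKM in those of CKO mice, a log2 fold change of 0.004 (95% interval −0.19 to 0.19, adjusted p = 1.0 from limma) and of −0.001 without Dnmt3a control replicate 2. The difference between the lines was −0.315 (95% interval −0.50 to −0.13), the largest among the markers, with an unadjusted p of 0.0031 and an adjusted p of 0.13 (interaction test of limma). Without Dnmt3a control replicate 2 it was −0.31 (limma's adjusted p = 0.23), and without Dnmt3a CKO replicate 1 it passed, at −0.37 (limma's adjusted p = 0.061). Over the 8 markers, 0 differences passed and 2 had an unadjusted p under 0.05, against 2.12% (1.83% for lower genes) and 10.6% of all genes, and 7 of 8 were below 0, against 58.8%.

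Sox5, the close relative of Sox6, spans 143828425 to 144781977 of chromosome 6 (minus strand) and gave the tightest values of the 8. It was at 6.19, 6.64 and 6.62 FPKM in the Dnmt1 controls, while the Dnmt1 CKO mice had 6.45, 6.24 and 6.38 FPKM. These overlap, with a log2 fold change of −0.03 (95% interval −0.14 to 0.09, adjusted p = 0.85 from limma). The interval corresponds to a change between −9.4% and 6.2%. For the Dnmt3a groups the means were 6.40 ± 0.068 FPKM in control cortices against 6.41 ± 0.374 FPKM in those of CKO mice (SD, n = 3). Within a library the ratio of Sox6 to Sox5, which rescaling a whole library does not move, was 0.670, 0.604 and 0.598 in the Dnmt1 controls and 0.495, 0.530 and 0.503 in the Dnmt1 CKO mice. Every CKO ratio lay below every control ratio. Ratios of the Dnmt3a groups overlapped, with means of 0.579 ± 0.0345 in control and 0.579 ± 0.00687 in CKO mice.

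Since the enzymes removed act on CpG dinucleotides, promoter sequences are shown for Pdgfra and Sox6, the markers that fell together, and for Sox5, which did not. They are from RefSeq on GRCm38.p6, 5′ to 3′ on the gene's strand, with each CpG in capitals. Each holds 250 bases that end before the outermost start for which a window was available. These starts differ from the gene ends given above, so the windows are not placed alike. The Sox6 window ends at 116038745, inside the annotated gene, whose 5′ end is at 116038796. That of Pdgfra ends at 75152250, short of the annotated start at 75152292. For Sox5 the only window is at an inner start, far from the annotated 5′ end of the gene at 144781977. The promoter at that end is therefore not shown. DNA methylation itself was not analysed here.
Pdgfra (chr5:75152001-75152250, plus strand): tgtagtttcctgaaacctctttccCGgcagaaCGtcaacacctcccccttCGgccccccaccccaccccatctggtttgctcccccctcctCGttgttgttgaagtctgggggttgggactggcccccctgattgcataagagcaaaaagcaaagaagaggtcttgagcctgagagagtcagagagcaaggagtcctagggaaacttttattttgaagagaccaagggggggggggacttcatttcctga
Sox6 (chr7:116038745-116038994, minus strand): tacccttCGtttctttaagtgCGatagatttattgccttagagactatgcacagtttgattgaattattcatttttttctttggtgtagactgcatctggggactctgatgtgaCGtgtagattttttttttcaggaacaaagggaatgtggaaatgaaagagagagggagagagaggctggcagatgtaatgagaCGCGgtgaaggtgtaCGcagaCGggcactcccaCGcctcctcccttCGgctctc
Sox5 (chr6:143947107-143947356, minus strand, inside the annotated gene): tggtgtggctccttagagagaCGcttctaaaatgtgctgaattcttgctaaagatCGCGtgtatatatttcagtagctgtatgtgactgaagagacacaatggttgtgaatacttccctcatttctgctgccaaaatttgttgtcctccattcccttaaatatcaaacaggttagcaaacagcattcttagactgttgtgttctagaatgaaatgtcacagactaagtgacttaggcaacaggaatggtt
Both strands hold the same CG letters, and 91.7% of the windows of 27025 genes hold at least 1. The Pdgfra window held 4 CpG, Sox6 9 and Sox5 3, where the median gene had 6. Those of the other markers in the table had more, with 22 for Ptprz1, 12 for Cspg4 and 11 each for Lhfpl3 and Susd5. Sox6 also had windows at inner starts, which held between 1 and 10 CpG and are not printed. As many CpG as in the Pdgfra window or more were found in 61.9% of genes, and the same share was 40.8% for Sox6, 70.4% for Sox5 and 14.6% for Ptprz1. Among the windows at the outermost available start of 7 markers, the inner Sox5 window had the fewest CpG and that of Pdgfra the next fewest. Sox5 was at −0.03 in the Dnmt1 line and Pdgfra at −0.30. The Sox5 count does not describe the promoter at its annotated 5′ end, and a relation of CpG number to effect was not tested. C1ql1 was not in the table of windows.

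Cspg4 (chromosome 9, 56865033 to 56899870, plus strand) encodes NG2, the surface proteoglycan that gives OPCs their other name, NG2 glia. It was at 3.001, 2.80 and 3.20 FPKM in the Dnmt1 controls, while the Dnmt1 CKO mice had 3.02, 3.05 and 2.92 FPKM, so that the CKO values lie inside the control range. The log2 fold change of −0.001 has a 95% interval from −0.17 to 0.17, or −11.2% to 12.5%, and a decrease of the size seen for Pdgfra or Sox6 lies outside it. The ratio of Pdgfra to Cspg4 within a library was 5.03, 4.88 and 4.25 in the Dnmt1 controls and 3.77, 3.79 and 3.91 in the CKO mice, again without overlap. The Dnmt3a CKO mice had the widest spread of Cspg4, with 2.37, 3.43 and 2.94 FPKM against 2.89, 2.76 and 2.66 FPKM in their controls. Beside these values, the pericyte and mural list held 8 genes, all tested, of which Rgs5 and Acta2 were called lower in the Dnmt1 CKO mice (log2 fold changes of −0.36 and −0.47). The list had a median of −0.12, with 7 of 8 below 0 and the highest at 0.004. Its summed level was 72.3 to 75.4 FPKM in Dnmt1 control and 62.1 to 69.7 FPKM in Dnmt1 CKO cortices, and its part in the Cspg4 values was not tested.

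Lhfpl3 (chromosome 5, 22746059 to 23275597, plus strand) encodes a tetraspan membrane protein and C1ql1 (chromosome 11, 102939264 to 102946688, minus strand) a secreted C1q-like protein. Lhfpl3 was at 14.7, 11.9 and 12.1 FPKM in the Dnmt1 controls, while the Dnmt1 CKO mice had 10.8, 11.8 and 10.6 FPKM. The groups were separate but only just, and the highest control lay far above the other two. The log2 fold change of −0.21 (95% interval −0.44 to 0.01) did not pass (adjusted p = 0.36 from limma), and without Dnmt1 control replicate 1 it was −0.12. C1ql1 was at 6.95, 7.10 and 5.61 FPKM in the Dnmt1 controls, while the Dnmt1 CKO mice had 6.17, 5.79 and 4.81 FPKM. These overlap, with a log2 fold change of −0.23 (95% interval −0.54 to 0.09, adjusted p = 0.49 from limma), an interval that includes a decrease the size of that of Pdgfra. With Dnmt1 CKO replicate 3 left out, the C1ql1 value was −0.12. Between the Dnmt3a groups the log2 fold changes of Lhfpl3 and C1ql1 were −0.02 and −0.06, and Dnmt3a CKO replicate 3 had the lowest value of both genes, 10.3 and 4.31 FPKM.

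Ptprz1 (chromosome 6, 22875502 to 23052916, plus strand) encodes a receptor tyrosine phosphatase that binds pleiotrophin. It was at 38.8, 32.5 and 36.8 FPKM in the Dnmt1 controls, while the Dnmt1 CKO mice had 34.3, 34.0 and 32.2 FPKM, with overlap. The log2 fold change was −0.10 (95% interval −0.27 to 0.07, adjusted p = 0.57 from limma), and 0.02 in the Dnmt3a line. Leaving out the Dnmt1 control with the highest level (replicate 1) gave −0.046, and leaving out the lowest (replicate 2) gave −0.17. Of 9 astrocyte genes tested beside it, 1 was called in the Dnmt1 line, Gfap, which was higher at a log2 fold change of 0.45. The median of the list was −0.03, with 5 of 9 below 0 and the lowest at −0.28. The summed level of the list was 888.5 to 921 FPKM in control cortices against 881 to 900 FPKM in those of CKO mice. Susd5 (chromosome 9, 114057140 to 114098728, plus strand), which encodes a sushi domain protein, was the only marker with a higher mean in the Dnmt1 CKO mice. It was at 2.26, 2.54 and 1.99 FPKM in control cortices against 2.63, 2.80 and 2.31 FPKM in those of CKO mice. The groups overlap, and the log2 fold change of 0.18 (95% interval −0.10 to 0.47) did not pass (adjusted p = 0.54 from limma). Leaving out Dnmt1 control replicate 3, the lowest for Susd5, gave 0.095, and leaving out Dnmt1 CKO replicate 2, the highest, gave 0.121.

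Over the 8 markers, the median log2 fold change was −0.16 in the Dnmt1 line, against −0.02 over all genes tested, and 7 of 8 were below 0, against 58.6% of all genes. That median was −0.088 without Dnmt1 control replicate 1 and −0.099 without Dnmt1 CKO replicate 3. In 3 of 8 the CKO values lay below all controls, against 14.4% of all genes (20.8% separate in either direction). In the Dnmt3a line the median was 0.002 (all genes 0.007), 3 of 8 were below 0 (46.5% of all genes), the values of 0 markers were separate (12.8% of all genes, 5.45% with the CKO values lower), and the effects ran from −0.06 to 0.09 with adjusted p from 0.89 to 1.0 (limma). Without the library labelled Dnmt3a control replicate 2, the effects in that line ran from −0.10 to 0.05, with 5 of 8 below 0, 0 calls and a median of −0.003. The sum of the 8 levels was 91.1, 81.1 and 83.8 FPKM in the Dnmt1 controls and 77.9, 78.5 and 73.9 FPKM in the Dnmt1 CKO mice, so that every CKO sum was below every control sum. The sum weights the markers by level: Ptprz1, whose groups overlap, made up 36.0 of the mean of 85.3 FPKM in the Dnmt1 controls. Between the Dnmt3a groups the sum was 78.2 ± 2.71 FPKM in control cortices against 78.2 ± 5.38 FPKM in those of CKO mice (SD, n = 3).

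**Figure D2:**
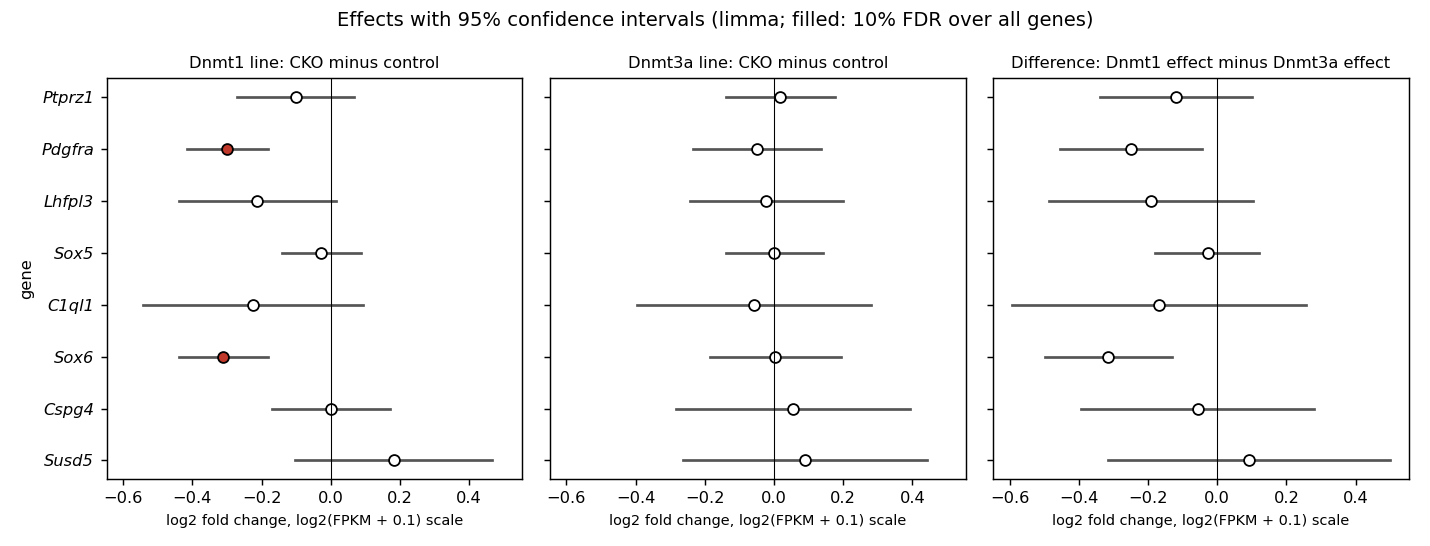
Log2 fold changes (points) with 95% confidence intervals (lines) of the 8 markers from limma, in the Dnmt1 line, the Dnmt3a line and as the difference between them, with filled points for 10% FDR over all genes. The intervals of Pdgfra and Sox6 in the Dnmt1 line end below 0, at −0.18 each, whereas all intervals of the Dnmt3a line include 0.

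The rest of the lineage gives a scale for these changes. Of 12 genes of committed and newly formed oligodendrocytes, 9 fell in the Dnmt1 line, with a median log2 fold change of −0.60 over the list, and all 12 were below 0. Gpr17, a receptor marking committed precursors, had a log2 fold change of −0.56, Bcas1 of −0.76 and the kinase gene Fyn of −0.11, the last not called. All 12 myelin genes fell, with a median of −1.95, among them Mbp (−1.67) and Cnp (−1.38). The plot of lineage lists sets these beside the markers. The ratio of Pdgfra to Mbp within a library was 0.0127, 0.0124 and 0.0137 in the Dnmt1 controls and 0.0363, 0.0312 and 0.0325 in the Dnmt1 CKO mice, higher in every CKO library. Of the 8 lineage transcription factors, 6 fell in the Dnmt1 line: Olig1 (−1.19), Myrf (−1.12), Sox10 (−0.815), Nkx2-2 (−0.74), Olig2 (−0.54) and Sox8 (−0.43). Zfp488 was at 0.12 and was not called. Olig1 is also the locus that carries cre in both CKO groups, and its log2 fold change in the Dnmt3a line was −0.49 (adjusted p = 0.66 from limma), with every CKO value below every control. The difference between the lines for Olig1 was −0.70 (95% interval −1.01 to −0.39, adjusted p = 0.032 from limma), and −0.74 without Dnmt3a control replicate 2 (limma's adjusted p = 0.052). The ratio of Pdgfra to Olig2, which is expressed in progenitors and mature cells alike, was 1.25 to 1.47 in the Dnmt1 controls and 1.45 to 1.83 in the CKO mice, with overlap.

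**Figure D3:**
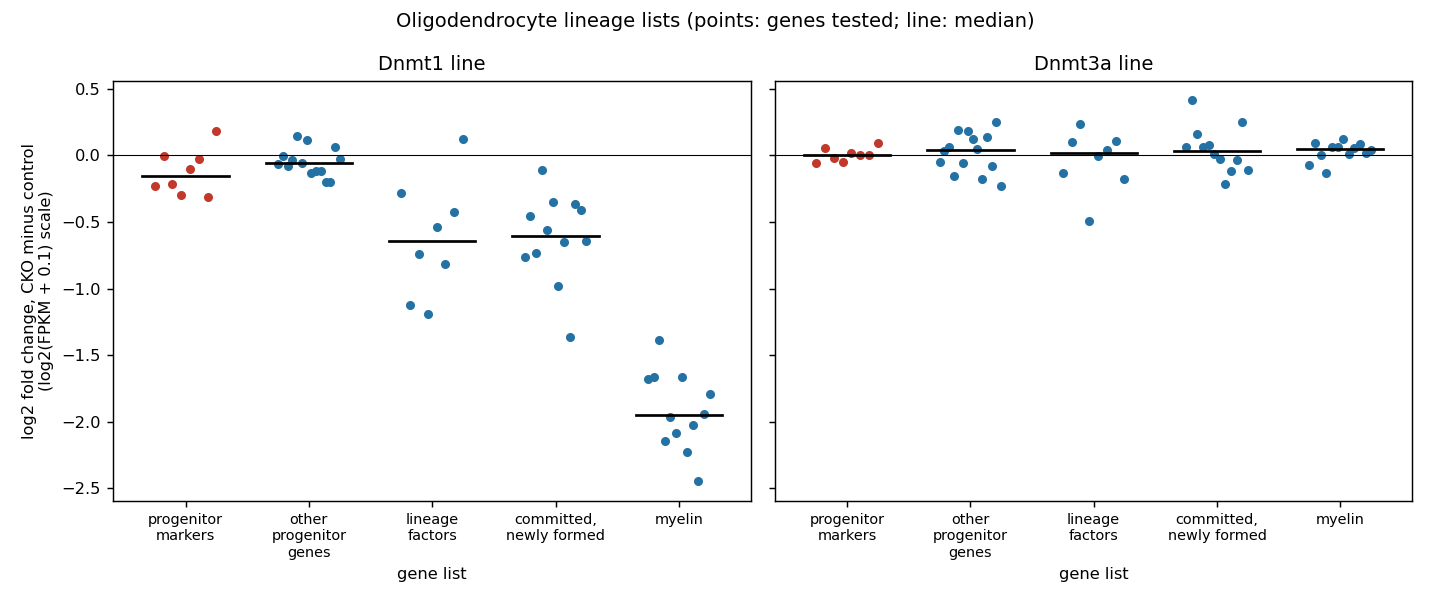
Log2 fold changes of CKO against control (1 point per gene tested, horizontal line at the median) for the 8 progenitor markers and 4 other lineage lists, in the Dnmt1 line (left) and the Dnmt3a line (right). In the Dnmt1 line the medians are −0.16 for the markers, −0.06 for other progenitor genes, −0.64 for lineage factors, −0.60 for committed cells and −1.95 for myelin genes, and in the Dnmt3a line all medians lie between 0.002 and 0.05 (between −0.003 and 0.11 without Dnmt3a control replicate 2).

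Of 15 further genes enriched in progenitors, 14 were tested and 0 passed in either line by limma. Their median log2 fold change was −0.06 in the Dnmt1 line. The most abundant were the proteoglycan core proteins Cspg5 (−0.08) and Ncan (−0.115) and the matrix glycoprotein Tnr, whose values did not overlap (−0.20, adjusted p = 0.18 from limma). These are levels in whole cortex, and the part of cells other than progenitors in them was not tested. The list of ligands, receptors and relatives of the markers, with 15 genes in the table of which 14 were tested, had 0 calls in either line and a median of −0.02 in the Dnmt1 line. Its most abundant member, Ptn, encodes pleiotrophin, the ligand of Ptprz1. It was at 127, 127 and 130 FPKM in the Dnmt1 controls, while the Dnmt1 CKO mice had 119, 127 and 116 FPKM, a log2 fold change of −0.09 that did not pass (adjusted p = 0.39 from limma), although the groups were separate. Pdgfa, the main ligand of the PDGF receptor alpha chain, was at 16.9, 15.8 and 14.3 FPKM in the Dnmt1 controls and 15.1, 16.5 and 14.7 FPKM in the CKO mice, which overlap.

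Lists for the fibroblasts, interneurons and deep-layer neurons that also express Pdgfra, Sox6 or Sox5 were read beside the markers. Of 6 fibroblast genes, 0 were called in the Dnmt1 line, and their summed level was 28.7 to 33.6 FPKM in control cortices against 24.9 to 28.7 FPKM in those of CKO mice. Of 8 inhibitory interneuron genes, Pvalb was called lower (−0.27), 7 were below 0, and the median of the list was −0.10. Its summed level was 497 to 538.5 FPKM in control cortices against 468.5 to 520 FPKM in those of CKO mice. Of 7 genes of deep-layer excitatory neurons, 0 were called and all were above 0, with summed levels of 163 to 192 and 188 to 207 FPKM. The part of these cells in the Pdgfra, Sox5 and Sox6 values was not tested. Lists for other cells of the cortex gave the following. The 6 endothelial genes, of which 0 were called, had summed levels of 55.3 to 59.9 FPKM in Dnmt1 control and 47.0 to 52.5 FPKM in Dnmt1 CKO cortices. Of 7 microglia genes, C1qa and C1qb rose (0.34 and 0.42), the other 5 were not called and ran from −0.16 for P2ry12 to 0.095 for Aif1, the median of the list was 0.04, and its summed level was 101 to 106 FPKM in Dnmt1 control and 112 to 118 FPKM in Dnmt1 CKO cortices.

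Pdgfra and Sox6 had nearly the same pattern over the libraries. When each gene's log2 values were centred on their mean over the 12 libraries, Sox6 was the second most alike of 14074 genes to Pdgfra, with a root-mean-square difference of 0.0571, and Pdgfra the third most alike to Sox6. Klhl5 (0.0561) and Erbb4, a neuregulin receptor (0.0596), were the others nearest to Pdgfra, and Ctnnal1 (0.0554) and the tubulin gene Tubb4a (0.0566) those nearest to Sox6. All 4 were lower in every Dnmt1 CKO library than in every Dnmt1 control, with log2 fold changes of −0.26, −0.30, −0.22 and −0.22, and limma called Klhl5 and Tubb4a. The ratio of Sox6 to Pdgfra was 0.287 ± 0.0102 in Dnmt1 control and 0.283 ± 0.00303 in Dnmt1 CKO mice (SD, n = 3). The remaining markers were further away, and next in order to Pdgfra came Lhfpl3, at rank 411, whereas Cspg4 was at rank 8749. These likenesses are over the libraries that also gave the calls, and are a description.

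**Figure D4:**
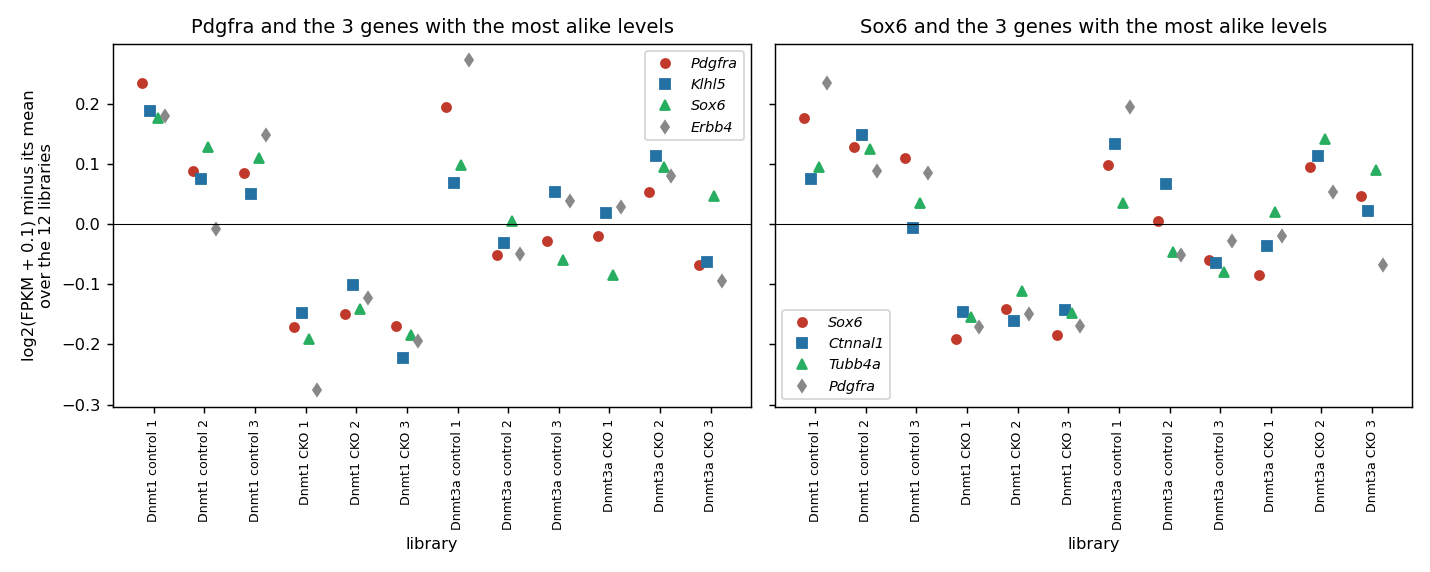
Centred log2(FPKM + 0.1) of Pdgfra (left) and Sox6 (right) with the 3 genes of the most alike pattern, by library (horizontal axis) and in log2 units from each gene's mean over the 12 libraries (vertical axis). In both panels the 3 Dnmt1 CKO libraries are the low ones for all genes, and the 3 Dnmt3a CKO libraries lie above them.

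Reads from other genes can enter a value. Of the 50-base words in their annotated transcripts, 0.15% or fewer were shared with another gene in each of the 8 markers. Exons of Pdgfra, Lhfpl3 and Sox5 overlap those of genes annotated on the opposite strand (Gm42802 and Gm42803, A930003O13Rik and Sox5os1), and Mir7025 overlaps Pdgfra on its own strand. Whether counting used the strand is not given in the sources used here.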

How the data were processed

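Per the labels and the study's methods, RNA from the cortices of 12 mice (4 groups of 3 biological replicates) was made into TruSeq libraries and sequenced, and the authors aligned reads to mm10 with TopHat and computed FPKM values per gene with Cufflinks, which were deposited as 1 table. Tool versions and any further scaling between libraries are not given in the sources used here. Of 23850 deposited rows, 302 exact duplicates were removed. The 14115 rows whose mean reached 0.5 FPKM were fitted as log2(FPKM + 0.1) with limma 3.58.1 in R 4.3.3 (lmFit, then eBayes with a mean-variance trend), each line alone, and the difference between the lines in 1 model of 12 libraries. P-values were adjusted by Benjamini-Hochberg over all rows, with 10% FDR as the threshold. A fold change on this scale understates the change of low genes. Where a symbol had several rows, the row of highest mean was used. The steps were tested on simulated data. In the Dnmt1 line, 20% of genes with a simulated log2 change of 0.25 were recovered, and 69% at 0.5. For the difference between the lines the shares were 8.33% and 73.8%. False calls numbered 17 in the Dnmt1 line and 10 in the difference. A marker that did not pass can therefore still have changed by such an amount. Intervals are at 95%.

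The 8 markers and all gene lists were chosen with earlier results of these data known. Genes named beside the markers were the 3 of highest mean in a list, all called lineage factors and partners, and the 3 most alike to each called marker. Pdgfa, Acta2, Rgs5, Pvalb, Gfap, C1qa, C1qb, P2ry12 and Aif1 were named after their values were seen. Some genes that this rule names are not reported here. Coordinates are from GENCODE on GRCm38. The alternatives tried were another pseudocount, another minimum mean or none, summed rows, rescaled or quantile-normalized libraries, other variance settings, 1 model of 4 groups, a replicate block, 5% FDR and leaving out each library.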

Additional observations from a re-analysis of the deposited data

How the results depend on the processing

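Of 472 alternative values of the marker effects, 432 kept their direction and side of the threshold, 26 turned sign, 12 lost the call and 2 gained it. The cause was not tested. Of the 2 markers called in the Dnmt1 line, 1 remained in number at 5% FDR, and 0 to 1 with a library left out. Genes called in that line were 443, 262 at 5% FDR, and 197 to 339 with a library left out. In the Dnmt3a line 2 genes were called, 1 with a pseudocount of 1, a minimum mean of 1 FPKM, quantile normalization, 1 model of the 4 groups or 5% FDR, 17 with no filter, and 2 to 5 with a library left out. Markers called in the difference were 0, and 0 to 1 with a library left out. Correlations of same-numbered deviations ran from −0.079 to 0.035, and those of other pairs from −0.093 to 0.107, so no pairing by replicate number was seen. The labels do not give the litters, and these correlations, from 3 libraries per group, cannot tell whether mice were paired. With a replicate block, 0 markers (limma's adjusted p = 0.19 for Pdgfra and 0.25 for Sox6) and 161 genes were called in the Dnmt1 line and 1 gene in the Dnmt3a line. With libraries rescaled by median ratio, Cspg4 turned to 0.017 in the Dnmt1 line, and Sox5 to −0.008 and Sox6 to −0.004 in the Dnmt3a line. With quantile normalization Cspg4 turned to 0.02 in the Dnmt1 line, and Ptprz1 to −0.006 and Sox5 to −0.001 in the Dnmt3a line. With a library left out, Cspg4 ran from −0.049 to 0.046 in the Dnmt1 line. In the Dnmt3a line the ranges were −0.095 to 0.028 for Pdgfra, −0.066 to 0.193 for Cspg4, −0.046 to 0.055 for Ptprz1, −0.085 to 0.08 for Lhfpl3, −0.165 to 0.091 for C1ql1, −0.052 to 0.165 for Susd5, −0.028 to 0.049 for Sox5 and −0.034 to 0.056 for Sox6. In the difference they were −0.193 to 0.065 for Cspg4 and −0.077 to 0.0 for Sox5. A fit without a library assumes that the remaining mice of its group vary like the others. Read depth per gene is unknown, which limits what can be said of the lower markers.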

Other observations

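Of 13 genes of proliferating cells, 10 passed the minimum mean, and limma called 0 of them in either line. Their median log2 fold change was 0.04 in the Dnmt1 line and 0.12 in the Dnmt3a line. Without the library labelled Dnmt3a control replicate 2, the median in the Dnmt3a line was 0.048, with 7 of the 10 above 0 and 0 called.

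Dnmt3a CKO replicate 2 had the highest value of its group for 7 of the 8 markers, and Dnmt1 CKO replicate 3 the lowest of its group for 5.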
